A study of Mus musculus with 18 samples.

Results

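The immediate early genes *Fos*, *Fosb*, *Junb*, *Egr1*, *Egr3*, *Nr4a1*, *Npas4*, *Arc*, *Ier2* and *Dusp1* were followed across dorsal root ganglia (DRG) of mice with and without tibial fracture. They were taken by gene symbol from a count table of 36737 genes, in which all 10 were found, once each. The rule for choosing them uses gene names and no measured value, although earlier results of these data were known when it was made. Bulk RNA-seq of L3–L5 DRG gave 18 libraries, 1 per mouse, in 3 groups of 6 mice (3 males and 3 females each). All were adult outbred CD1 mice, for which no transgene or deletion is named. The sham group had sham surgery. The fracture group had vehicle and the fracture plus PDX group had protectin DX (PDX), a lipid mediator that is made during the resolution of inflammation, and both had a pin placed in the tibia and an osteotomy under isoflurane. Ganglia were taken 3 days after fracture. The day for the sham mice, the PDX dose of these mice and the side of the ganglia are not given in the sources used here.

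Immediate early genes are transcribed within minutes of a stimulus without new protein synthesis, from promoters held ready by factors such as CREB and serum response factor, and their mRNAs are short lived. In sensory neurons, electrical activity, calcium entry, growth factors and stress raise them, and non-neuronal cells of the ganglion use the same genes. They also respond to the handling of tissue at dissection and to stress before it. Most of the 10 encode transcription factors, *Arc* encodes a synaptic effector, *Ier2* a nuclear regulator, and *Dusp1* a phosphatase that ends MAP kinase signaling.

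RefSeq promoter windows (GRCm38; 250 bases before to 50 bases after the start) were found for 6 of the 10 genes, namely *Fos*, *Fosb*, *Junb*, *Nr4a1*, *Dusp1* and *Npas4*. Both strands were searched for the CREB site TGACGTCA (CRE) and for its half-site TGACG, which lies within it. A half-site was present in all 6 windows and in 20.81% of 32851 mouse promoter windows of this length. For *Npas4* all 250 upstream bases, its half-sites included, lie within an annotated exon of *Npas4* itself. In the *Dusp1* window 47 upstream bases lie within an annotated protein-coding *Dusp1* exon. A full CRE was present only in the *Dusp1* window, against 1.79% of all windows. The early growth response (EGR) site GCGNGGGCG was found in the *Fosb* and *Nr4a1* windows (5.552% of all windows). Neither the CArG box of serum response factor (1.629%) nor an AP-1 site (TGAGTCA or TGACTCA, bound by Fos and Jun dimers; 5.202%) was found in these 6 windows. Sites farther than 250 bases upstream were not searched, so that this does not show that a gene lacks them. Matches of letters describe the windows and do not show that a factor was bound. Upstream sequences are printed for *Fos*, *Junb* and *Nr4a1*, where no annotated exon lies in the 250 upstream bases. For *Dusp1* a stretch of 120 bases that holds the full CRE and lies outside annotated exons is printed. The upstream bases of *Fosb* and *Npas4* overlap annotated exons and are not printed. The half-sites, the full CRE and the EGR site stand in capitals, and sequences read 5′ to 3′ on the strand of the gene.
*Fos*, chr12:85473640-85473889, plus strand: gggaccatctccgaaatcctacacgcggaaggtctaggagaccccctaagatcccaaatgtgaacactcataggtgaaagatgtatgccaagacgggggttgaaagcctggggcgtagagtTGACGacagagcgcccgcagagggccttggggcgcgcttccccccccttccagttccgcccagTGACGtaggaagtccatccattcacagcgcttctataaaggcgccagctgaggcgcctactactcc
*Junb*, chr8:84978749-84978998, minus strand: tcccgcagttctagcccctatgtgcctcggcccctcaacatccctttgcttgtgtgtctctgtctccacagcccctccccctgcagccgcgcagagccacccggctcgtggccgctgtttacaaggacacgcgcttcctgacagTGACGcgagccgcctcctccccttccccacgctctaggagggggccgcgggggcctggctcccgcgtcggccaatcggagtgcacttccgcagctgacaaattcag
*Nr4a1*, chr15:101266596-101266845, plus strand: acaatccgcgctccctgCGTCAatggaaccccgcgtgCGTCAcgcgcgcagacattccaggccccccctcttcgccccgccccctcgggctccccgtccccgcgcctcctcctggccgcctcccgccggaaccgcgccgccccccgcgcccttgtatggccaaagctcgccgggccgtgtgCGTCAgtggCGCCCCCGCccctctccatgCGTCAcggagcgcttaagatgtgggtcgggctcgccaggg
*Dusp1*, chr17:26508553-26508672, minus strand: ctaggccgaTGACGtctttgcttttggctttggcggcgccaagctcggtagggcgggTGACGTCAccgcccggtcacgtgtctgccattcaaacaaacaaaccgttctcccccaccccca
In these stretches *Fos* has 2 half-sites, at positions -129 and -66 (counted upstream from the RefSeq start, with -1 next to it), and *Junb* has 1 at -106. *Nr4a1* has 4, which read CGTCA because they lie on the other strand, and an EGR site from -60 to -52. *Dusp1* holds the full CRE from -143 to -136 and another half-site at -191.

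All libraries were deep, with 63235040 to 82824942 counts on genes, so that counting error was small for all of these genes but *Npas4* (10 to 43 counts per library) and *Fosb* (58 to 172). The 10 neuron markers summed to 16153–19432 CPM over the 18 mice. The 6 genes of a placenta list, which includes *Prl3b1* and *Tpbpa*, summed to 149–469 CPM in sham mice, 25.5–222 CPM in fracture mice and 24.5–117 CPM in fracture plus PDX mice, males included. Values scaled to the total count on genes (CPM) are used below for comparisons between mice. FPKM, which are also divided by transcript length, are used for comparisons between genes.

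In FPKM over all 18 mice, *Junb* had the highest mean, 11.6 (range 8.91–13.6), and exceeded 89.1% of all genes in the table. *Nr4a1*, an orphan nuclear receptor, followed with 11.1 (8.76–15.03), and these 2 genes changed order in 4 of 6 sham mice. *Dusp1* had 8.12 (6.19–9.72) and *Ier2* had 4.21 (3.50–5.56). In sham mice the range of *Nr4a1* lay above that of *Dusp1*, and the range of *Dusp1* above that of *Ier2*. The next 4 genes overlapped each neighbour in sham mice: *Egr1* at a mean of 2.59 FPKM, *Fos* at 2.11, *Arc* at 1.62 and *Egr3* at 1.40. *Fosb* (0.199 FPKM) and *Npas4* (0.075 FPKM), the neuron-restricted member that depends on calcium entry, were well below the others, with separate ranges in sham mice. The classical activity markers were thus detected in the ganglia of every mouse at low to moderate levels, also in mice without fracture.

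Fracture was first compared with sham surgery. All 10 genes had lower estimates in fracture mice, with a median log2 fold change of -0.27 against 0.0021 over all 20659 genes tested, but none passed an adjusted p of 0.05 in edgeR. Among all genes tested, 2.92% passed in either direction and 1.83% passed as lower. At an unadjusted p under 0.05, 6 of the 10 were lower (*Fos*, *Egr1*, *Junb*, *Nr4a1*, *Ier2* and *Dusp1*), against 9.69% of all genes tested. In bulk ganglia, fewer cells of a type and less RNA per cell cannot be told apart. No gene of the 10 separated the groups fully.

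The AP-1 subunits are taken first. *Fos* (chr12:85473890-85477273), the best known marker of recent neuronal activity, ranged from 5.62 to 8.94 CPM in sham mice (median 6.63) and from 3.79 to 6.46 CPM in fracture mice (median 4.53). Thus 4 of 6 fracture mice were below every sham mouse, and the ranges overlapped through the other two. The log2 fold change was -0.52 (SE 0.13; 95% CI -0.81 to -0.22), a level 0.698 times that of sham, with an edgeR adjusted p of 0.0507 and an exact permutation p of 0.0130, unadjusted. *Junb* (chr8:84976910-84978718), a partner of Fos proteins, ranged from 23.4 to 27.2 CPM in sham mice (median 25.1) and from 17.7 to 25.7 CPM in fracture mice (median 20.5). Again 4 of 6 fracture mice were below the sham range, while 2 males lay within it. Its log2 fold change was -0.23 (SE 0.07, edgeR adjusted p = 0.110). *Fosb* (chr7:19302696-19310051), whose stable splice product accumulates with repeated activity, overlapped widely, with 0.960–2.03 CPM in sham mice and 0.739–2.21 CPM in fracture mice. Its estimate was -0.12 with a 95% CI from -0.73 to 0.49, so that its direction could not be read at this spread.

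Among the zinc finger and nuclear receptor genes, *Egr1* (chromosome 18), a growth factor and activity responsive regulator, had the largest estimate of the 10 in edgeR. It ranged from 12.3 to 19.4 CPM in sham mice (median 15.5) and from 7.51 to 15.1 CPM in fracture mice (median 10.3). The lowest 4 of the fracture mice, all 3 females among them, were below every sham mouse. The log2 fold change was -0.58 (SE 0.15; 95% CI -0.91 to -0.25), a level 0.671 times that of sham, with an edgeR adjusted p of 0.0543 and an exact permutation p of 0.0108, unadjusted. *Egr3* (chr14:70077203-70082614), its homolog, spread over 4.82–11.999 CPM in sham mice and 4.89–8.65 CPM in fracture mice, so that no fracture mouse left the sham range. Its log2 fold change was -0.31 (SE 0.20, edgeR adjusted p = 0.451), and -0.15 without sham female 2. *Nr4a1* (chr15:101254269-101274795) ranged from 40.2 to 57.0 CPM in sham mice (median 49.0) and from 35.6 to 43.4 CPM in fracture mice (median 41.3). Of the fracture mice, 2 lay under the sham range and 4 within its lower part, with a log2 fold change of -0.26 (SE 0.09, edgeR adjusted p = 0.156). *Npas4* (chr19:4984355-4990316) had 0.229–0.534 CPM in sham and 0.229–0.414 CPM in fracture mice, and its log2 fold change of -0.31 had a 95% CI from -0.96 to 0.34.

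**Figure D1:**
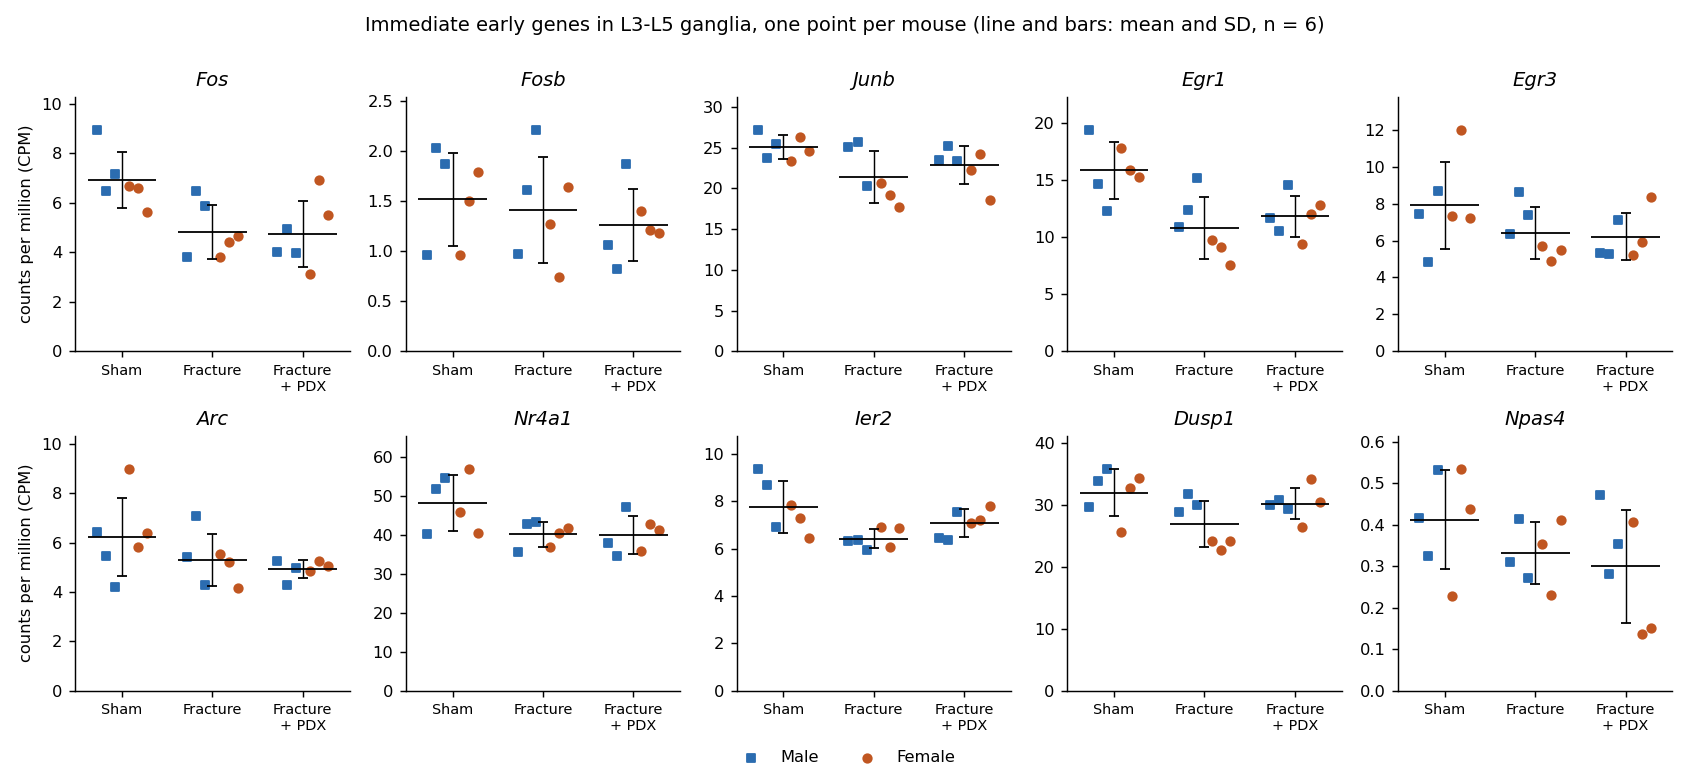
CPM (vertical axes, from 0) of the 10 immediate early genes in sham, fracture and fracture plus PDX mice, with 1 point per mouse (squares for males, circles for females) and the mean with its SD (n = 6). For *Fos*, *Junb*, *Egr1* and *Ier2*, 4 of 6 fracture mice lie below all sham mice, and for each of the 10 genes the ranges of both groups overlap.

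Of the remaining members, *Ier2* (chr8:84661331-84662854) had the smallest coefficient of variation of the 10 in fracture mice, 6.26%. It ranged from 6.47 to 9.37 CPM in sham mice (median 7.56) and from 5.96 to 6.93 CPM in fracture mice (median 6.35), with 4 of 6 fracture mice below every sham mouse. The log2 fold change was -0.27 (SE 0.10, edgeR adjusted p = 0.159; exact permutation p = 0.0130, unadjusted). *Dusp1*, the feedback phosphatase, ranged from 25.6 to 35.8 CPM in sham mice (median 33.3) and from 22.8 to 31.8 CPM in fracture mice (median 26.5). All 3 fracture females were below the sham range and all 3 males were within it, with a log2 fold change of -0.26 (SE 0.08, edgeR adjusted p = 0.0873). The annotated span of *Dusp1* (chr17:26505590-26562128) overlaps 4 other genes, *Ergic1* among them, and the strand setting of the counting is not given in the sources used here. *Arc* (chr15:74669083-74672570), which shapes synaptic strength in central neurons, had 4.22–8.98 CPM in sham mice and 4.15–7.09 CPM in fracture mice, with a log2 fold change of -0.22 (SE 0.17, edgeR adjusted p = 0.547) that moved to -0.099 without sham female 1.

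The position of *Fos* and *Egr1* relative to the threshold depended on the method. DESeq2 called 4 of the 10 genes lower, namely *Egr1* (adjusted p = 0.00236), *Fos* (0.0049), *Dusp1* (0.0289) and *Junb* (0.0470). Over all genes and in either direction, DESeq2 called 1506 in this comparison, where edgeR called 603. In edgeR without 1 mouse, *Fos* passed without fracture male 2 (adjusted p = 0.0456), *Egr1* without sham male 3 (0.0349) or fracture male 3 (0.0339), and *Dusp1* without sham male 1 (0.0412).

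Markers of other cell types also differed between sham and fracture mice, some lower and some higher. Among all genes tested, edgeR called 1.83% lower and 1.09% higher in this comparison. Of the 6 endothelial markers, *Cdh5* (log2 fold change -0.73, edgeR adjusted p = 0.0117) and *Flt1* (-0.71, adjusted p = 0.0171) were lower in fracture mice, and the list summed to 110–153 CPM in sham mice, 93.5–116 CPM in fracture mice and 93.2–107 CPM in fracture plus PDX mice. Of the 7 macrophage markers, *Csf1r* was lower (-0.47, adjusted p = 0.00733), and 3 of the 10 neuron markers (*Tubb3*, *Uchl1* and *Nefh*) were higher by 0.14 to 0.22. All 5 fibroblast markers had lower estimates, with *Dcn* called (-0.33, edgeR adjusted p = 0.0331), and summed to 1471–1946 CPM in sham mice, 1385–1614 CPM in fracture mice and 1276–1812 CPM in fracture plus PDX mice. All 8 skeletal muscle markers had higher estimates in fracture mice, with none called, and summed to 24.4–592 CPM in sham mice, 49.8–1150 CPM in fracture mice and 12.4–531 CPM in fracture plus PDX mice. All 6 placenta genes had lower estimates in fracture mice, with 2 passing an adjusted p of 0.05. All 6 neutrophil markers also had lower estimates, with a median of -0.79 and none called, and summed to 37.7–167 CPM in sham mice, 39.6–87.6 CPM in fracture mice and 38.9–216 CPM in fracture plus PDX mice. The same held for all 6 red blood cell markers (median -0.53, none called), which summed to 774–2209 CPM in sham mice, 969–1346 CPM in fracture mice and 497–2854 CPM in fracture plus PDX mice. All 6 Schwann cell markers had lower estimates as well (median -0.22, none called), with sums of 10599–24140, 12447–18961 and 15189–16980 CPM. In each of these 3 lists the fracture mice lay within the range of the sham mice. Of 5 smooth muscle and pericyte markers 4 had lower estimates, of 7 satellite glia markers 2 did, and none of either list was called. No marker of the lists named here was at 0 in any mouse except the placenta gene *Prl3d1* and the neutrophil gene *Ly6g*. The part of these shifts in the values of the immediate early genes was not tested.

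**Figure D2:**
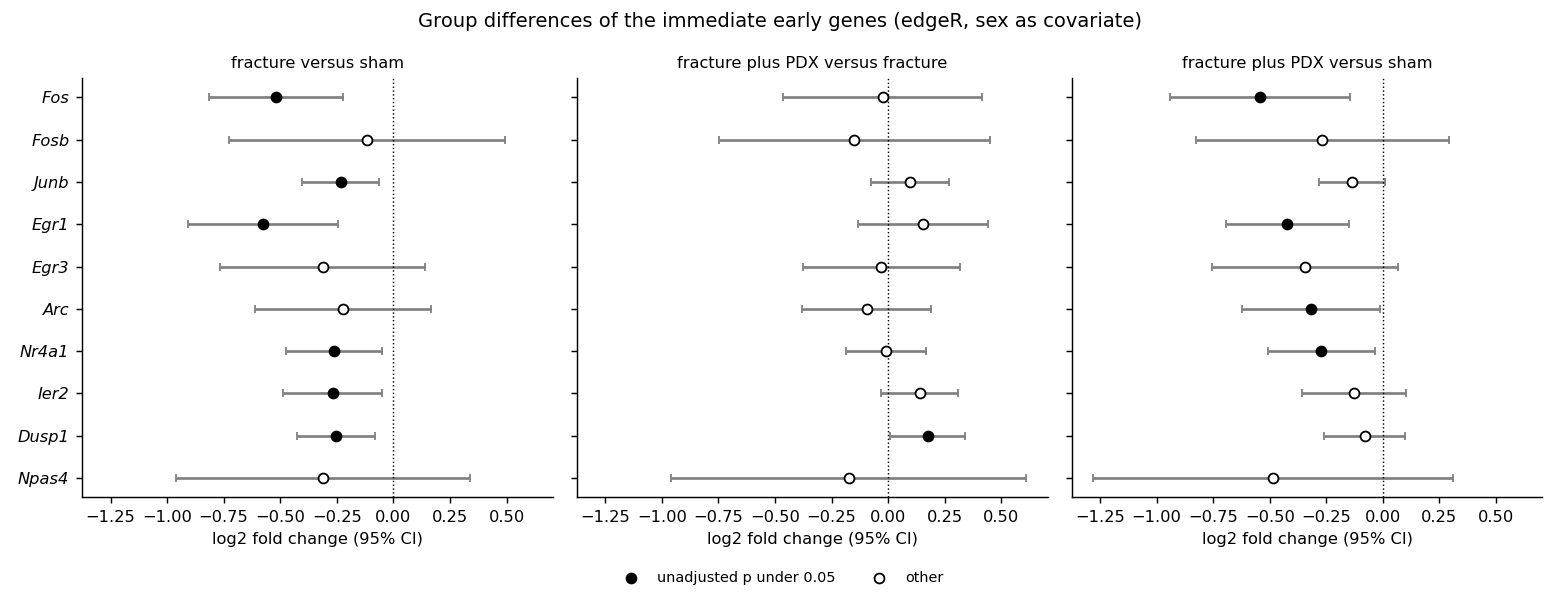
Log2 fold change (horizontal axes) of each immediate early gene with its 95% CI in the 3 comparisons, fitted by edgeR with sex as a covariate on 6 against 6 mice. Filled points have an unadjusted p under 0.05: 6 genes for fracture against sham, 1 for fracture plus PDX against fracture and 4 for fracture plus PDX against sham.

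PDX was then compared with vehicle in mice with fracture, the comparison of drug effect in the ganglion. None of the 10 genes was called by edgeR or DESeq2. Over all 20562 genes tested edgeR called 0 genes (0%), with 1113 at an unadjusted p under 0.05, and DESeq2 called 10. The estimates went both ways, 6 lower and 4 higher, with a median of -0.02. *Dusp1* was the only one with an unadjusted p under 0.05 (2.86% of all genes had this as higher), with a log2 fold change of 0.17 (SE 0.07, edgeR adjusted p = 0.901). It ranged from 26.5 to 34.2 CPM in fracture plus PDX mice (median 30.3), of which 5 were above the fracture mean and 1 was above every fracture mouse. *Ier2* ranged from 6.38 to 7.83 CPM (median 7.16), and 4 of 6 fracture plus PDX mice were above every fracture mouse. Its log2 fold change was 0.14 (95% CI -0.03 to 0.31, edgeR adjusted p = 0.917), with an exact permutation p of 0.0455 before adjustment over the 30 exact tests made. Marker lists of other cells differed between these groups too, with no marker called. All 6 neutrophil markers had higher estimates with PDX (median 1.12), and 5 of them had an unadjusted p under 0.05, beside 2.86% of all genes. All 8 skeletal muscle markers had lower estimates with PDX (median -1.91), and none had an unadjusted p under 0.05. All 7 macrophage markers had higher estimates (median 0.21), 1 of them with an unadjusted p under 0.05, and all 6 placenta genes had lower estimates (median -0.50), none with an unadjusted p under 0.05. All 6 red blood cell markers were estimated higher (median 0.28) and all 5 smooth muscle and pericyte markers lower (median -0.09), again none with an unadjusted p under 0.05. The part of these shifts in the values of *Dusp1* and *Ier2* was not tested.

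For *Fos*, the values with PDX (3.14–6.89 CPM, median 4.48) covered the whole fracture range, and the log2 fold change was -0.02 with a 95% CI from -0.46 to 0.41. *Egr1* had 9.34–14.5 CPM (median 11.8) and an estimate of 0.15 (95% CI -0.13 to 0.44). *Nr4a1* gave -0.0088 (95% CI -0.19 to 0.17) and *Junb* 0.10 (95% CI -0.08 to 0.27), so that larger differences than these bounds lay outside the intervals. The wide intervals of *Npas4* (-0.96 to 0.61) and *Fosb* (-0.75 to 0.45) left room for sizeable differences either way. *Arc* was compact in the PDX group, 4.28–5.25 CPM against 4.15–7.09 CPM in fracture mice, and its log2 fold change was -0.10 (95% CI -0.38 to 0.19).

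Fracture plus PDX mice were also set against the same sham mice that served in the first comparison, so that both share their reference. All 10 estimates were lower than sham, with a median of -0.29, and none was called by edgeR, where 4.5% of 20574 genes were. At an unadjusted p under 0.05, 4 were lower (*Fos*, *Egr1*, *Arc* and *Nr4a1*), against 8.99% of all genes. For *Fos* 5 of 6 mice were below every sham mouse, with a log2 fold change of -0.54 (SE 0.18, edgeR adjusted p = 0.109). For *Egr1* 4 of 6 mice were, with -0.42 (SE 0.12, edgeR adjusted p = 0.0685). *Dusp1* gave -0.08 (95% CI -0.26 to 0.10) and *Ier2* -0.13 (95% CI -0.36 to 0.10), beside -0.26 and -0.27 for fracture against sham. With 1 mouse left out these ranged from -0.14 (without sham female 1) to -0.047 (without fracture plus PDX female 1) for *Dusp1*, and from -0.18 (without sham female 3) to -0.070 (without sham male 1) for *Ier2*. DESeq2 called *Egr1* (adjusted p = 0.0130) and *Fos* (0.0347). Over all genes and in either direction, DESeq2 called 1627 here, where edgeR called 925. In edgeR without 1 mouse, *Fos* passed without fracture plus PDX female 2 (adjusted p = 0.0317), and *Egr1* without sham male 3 (0.0371) or fracture plus PDX male 3 (0.0444). Markers of other cells also differed in this comparison, where edgeR called 2.32% of all genes lower and 2.17% higher. The endothelial genes *Cdh5* (-0.74, edgeR adjusted p = 0.00216) and *Flt1* (-0.73, adjusted p = 0.00339) and the macrophage gene *Csf1r* (-0.34, adjusted p = 0.00431) were called lower, as were 4 of the 6 placenta genes (median of the 6, -2.28). The neuron genes *Rbfox3*, *Tubb3* and *Uchl1* were called higher by 0.14 to 0.21, and of the satellite glia genes *Kcnj10* was called higher (0.27) and *Sox10* lower (-0.15). All 5 fibroblast, 5 smooth muscle and pericyte, 6 Schwann cell and 6 red blood cell markers had lower estimates and all 6 neutrophil markers higher ones, with none called. The part of these shifts in the values of the 10 genes was not tested.

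Both sexes were sampled, so the differences were also read within each, on 3 against 3 mice, where the exact permutation test cannot give a p below 0.1. For fracture against sham, 10 of 10 genes had lower means in females and 8 of 10 in males. *Egr1* differed from sham by -0.26 in males and -0.89 in females on the log2 scale, and *Egr3* by 0.13 in males and -0.69 in females. *Fos* differed alike, by -0.51 in males and -0.55 in females. The interaction of sex with fracture had an unadjusted p of 0.0223 for *Egr1* and 0.0270 for *Egr3*, but their edgeR adjusted p were 0.634 and 0.637. For PDX against vehicle, 7 of the 10 means were lower in males and 1 in females. *Dusp1* was 0.35 higher with PDX in females and differed by -0.0051 in males, and *Egr3* differed by 0.26 in females and -0.34 in males. The interaction of sex with PDX had an unadjusted p of 0.0063 for *Dusp1* and 0.0347 for *Egr3*, but their edgeR adjusted p were both 0.998. No interaction passed an adjusted p of 0.05 in edgeR or DESeq2 in any comparison.

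**Figure D3:**
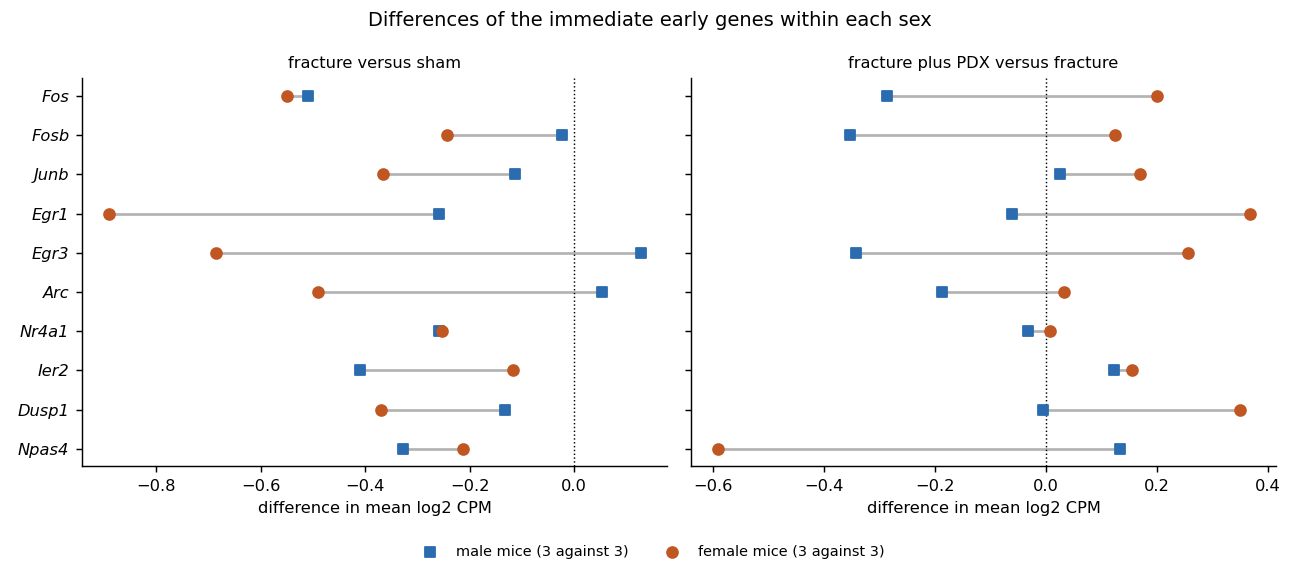
Difference in mean log2 CPM (horizontal axes) of each immediate early gene in males (squares) and females (circles), 3 against 3 mice, for fracture against sham and for PDX against vehicle after fracture. *Egr1* and *Egr3* lie farther apart by sex after fracture (-0.26 and -0.89, 0.13 and -0.69) than *Fos* or *Nr4a1*, and no difference between the sexes passed an adjusted p of 0.05.

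Other genes of the same response were read from lists of early transcription factors, feedback regulators, neuronal effectors and activators. Of 20 further early transcription factors, 2 were called lower in fracture mice by edgeR and 1 higher, beside 1.83% and 1.09% of all genes, with 15 of 20 estimates lower and a median of -0.22. DESeq2 called 8 lower and 1 higher, the stricter filter 5 and 1, the fit without sex 4 and 1, and a fit with the label number of the mouse as a replicate block 0 and 0. Over all genes these 4 settings called 1506, 640, 621 and 118 in either direction, beside 603 in the main fit. *Atf3*, a stress and axon injury factor, rose from 11.2–14.5 CPM in sham mice (median 12.9) to 20.2–72.5 CPM in fracture mice (median 39.0), without overlap. This was a log2 fold change of 1.65 (SE 0.25, edgeR adjusted p = 0.0141), which passed under 20 of 21 further settings (9 other methods or filters and 12 with 1 mouse left out). *Klf2*, a flow responsive factor of endothelium, fell by 0.71 on the log2 scale (SE 0.16, adjusted p = 0.0378; 7 of 21), and *Mafk* was lower in all 6 fracture mice than in any sham mouse (-0.21, SE 0.05, adjusted p = 0.0463; 8 of 21). *Jun*, the main partner of Fos, stood at 0.01 (adjusted p = 0.929). *Nr4a3*, a relative of *Nr4a1*, had -1.13 (adjusted p = 0.0543) for fracture against sham, and fell by 1.57 (SE 0.29, adjusted p = 0.00838) for fracture plus PDX against sham.

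Of 25 feedback regulators, 5 were called lower and 1 higher in fracture mice, beside the same shares of all genes (1.83% and 1.09%), with 23 of 25 estimates lower and a median of -0.18. The replicate block left 2 lower calls and 0 higher. *Zfp36*, which encodes a protein that destabilizes AU-rich mRNAs, including those of cytokines, had 11.7–16.2 CPM in sham mice (median 13.3) and 7.82–9.88 CPM in fracture mice (median 8.70). The groups did not overlap, and it fell by 0.66 (SE 0.09, edgeR adjusted p = 0.00607). *Btg2*, an antiproliferative early gene, likewise fell in all 6 mice below the sham range (-0.54, SE 0.10, adjusted p = 0.0162). These 2 genes passed under all 21 further settings, while *Sik1* (-0.47, adjusted p = 0.0274) and *Ccn1* (-0.37, adjusted p = 0.0358) passed under 14 and 11 of 21. *Btg1* (-0.18, adjusted p = 0.0348) passed under 7 of 21. The call in the other direction was *Gadd45a*, a damage and axon injury gene, at 16.9–27.3 CPM in sham and 28.2–46.0 CPM in fracture mice (0.76, SE 0.15, adjusted p = 0.0283; 14 of 21).

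Among 15 activity-induced neuronal effectors none was called lower and 2 were called higher, the synaptic pentraxin *Nptx2* (0.31, SE 0.06, edgeR adjusted p = 0.0204; 18 of 21) and its receptor *Nptxr* (0.18, SE 0.04, adjusted p = 0.0294; 12 of 21), beside 1.09% of all genes called higher. With the number of the mouse as a replicate block, neither was called (edgeR adjusted p = 0.0722 for *Nptx2* and 0.0839 for *Nptxr*). *Vgf*, a secreted neuropeptide precursor, stood at 0.34 (adjusted p = 0.0788) and was called for fracture plus PDX against sham (0.68, SE 0.12, adjusted p = 0.0122), where all 6 mice were above every sham mouse. In that comparison 3 of the 15 effectors were called higher, the other two being *Nptx2* and *Nptxr*, beside 2.17% of all genes. Of 23 signal-dependent activators of these promoters, edgeR called none in any comparison and DESeq2 called 1, as higher for fracture plus PDX against sham. Between PDX and vehicle, edgeR called none of the genes in these 4 lists.

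**Figure D4:**
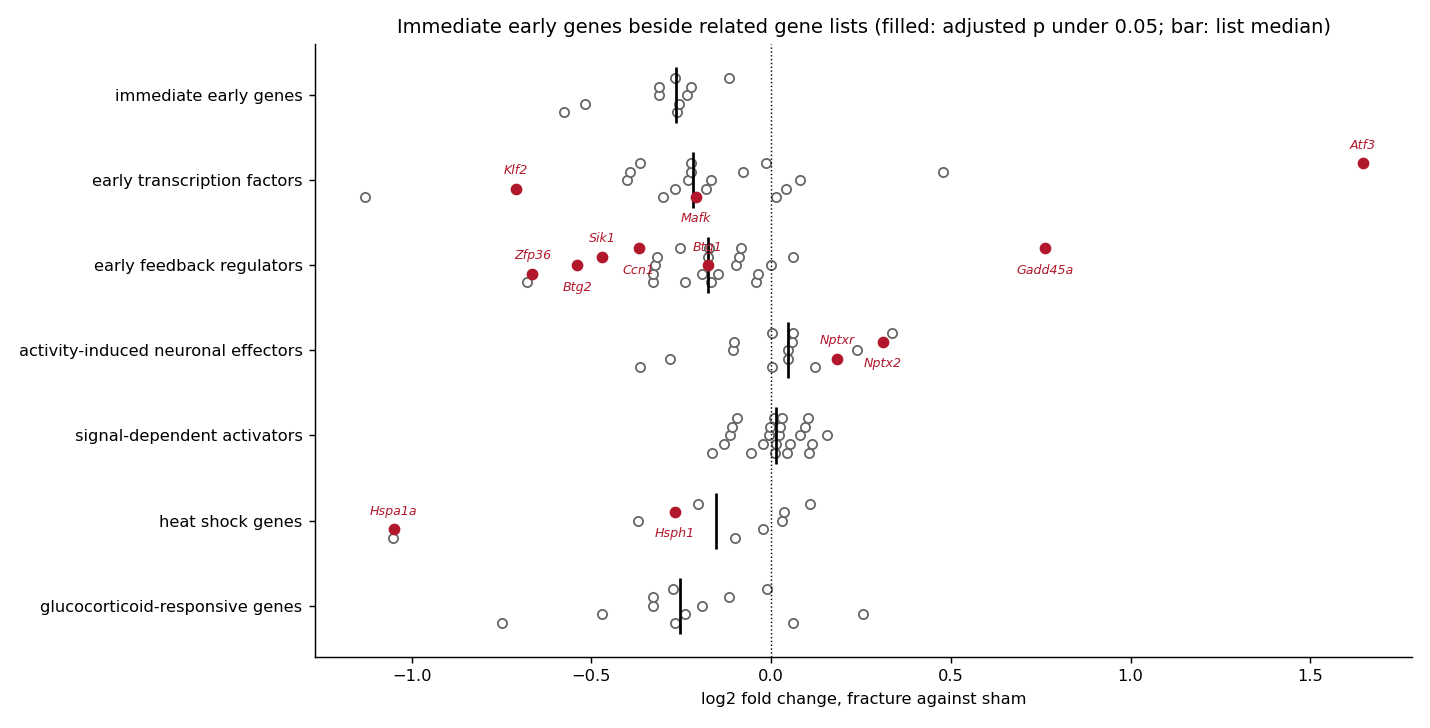
Log2 fold change for fracture against sham (horizontal axis) of the 10 immediate early genes and of each gene in 6 related lists, with vertical bars for list medians and filled, named points for an adjusted p under 0.05. The median of the immediate early genes is -0.27, *Zfp36* and *Btg2* are at -0.66 and -0.54, and *Atf3* stands apart at 1.65.

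Since handling of tissue also induces these genes, heat shock genes were read beside them. *Hspa1a*, an inducible chaperone that shares reads with its near copy *Hspa1b*, ranged from 21.6 to 69.8 CPM in sham mice (median 33.5) and from 17.6 to 20.2 CPM in fracture mice (median 18.7). Every fracture mouse was below every sham mouse, and it fell by 1.05 on the log2 scale (SE 0.23, edgeR adjusted p = 0.0451), passing under 7 of 21 settings. *Hsph1* also fell without overlap (-0.27, SE 0.06, adjusted p = 0.0251), so that 2 of 10 heat shock genes were called lower and none higher. For fracture against sham 1.83% of all genes were called lower and 1.09% higher, and the replicate block called 0 heat shock genes either way. Fracture plus PDX mice had 14.9–20.9 CPM of *Hspa1a*, also below every sham mouse, and 4 of 10 heat shock genes were called lower and 2 higher against sham, beside 2.32% and 2.17% of all genes. The replicate block left 2 lower and 1 higher, and the fit without the sex covariate 3 lower and 0 higher. Of 12 glucocorticoid-responsive genes, 10 had lower estimates for fracture against sham, where edgeR called none and DESeq2 called 1 lower. At an unadjusted p under 0.05 in edgeR, 1 of the 12 was lower, beside 9.69% of all genes. Between PDX and vehicle 8 of them had lower estimates (median -0.16) and edgeR called none. At an unadjusted p under 0.05, 5 were lower, beside 2.55% of all genes, and 1 was higher, and DESeq2 called 1 lower. For fracture plus PDX against sham 10 had lower estimates (median -0.36), edgeR called none, 5 were lower at an unadjusted p under 0.05, beside 8.99% of all genes, and DESeq2 called 3 lower. The part of tissue handling in the values of the immediate early genes was not tested, and times from death to freezing are not given in the sources used here.

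Whether the 10 genes varied together between mice was read from deviations from the mean of each group and sex over the 18 libraries, which share depth and scaling. Pearson's r was above 0 in 27 of 45 pairs, with a median of 0.10, and none of the pairs passed a Benjamini-Hochberg adjusted permutation p of 0.05 for r or for Spearman's rho. The highest was *Egr1* with *Ier2* (r = 0.59, permutation p = 0.0103; rho = 0.60), for which r was 0.41 when the 2 mice with the most extreme *Egr1* values were left out. By the mean deviation of the 9 members with a median of at least 100 counts, which leaves out *Npas4*, fracture male 1 was the lowest mouse relative to its group and sex (-0.19) and fracture plus PDX male 3 the highest (0.16). Of 15792 other genes ranked by likeness to this mean deviation, *Pyurf* (r = 0.91), *Atp1b2* (r = 0.86), *Sdc4* (r = 0.86) and *Pcolce2* (r = 0.83) came first, as a description over 18 libraries with no test. None of these 4 genes was called in any comparison.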

How the data were processed

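Poly(A) RNA of L3–L5 DRG from 18 mice was sequenced as strand-specific libraries. The authors deposited counts per gene without normalization and FPKM (normalized for transcript length and library size) for 36737 genes. The submitters' processing notes name cutadapt 1.10, FastQC, HISAT2, StringTie and the build mm10 (GRCm38). The counting strand setting is not given in the sources used here. No value column was left without a sample.

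Counts were fitted in R 4.3.3 with edgeR 4.0.16 (TMM scaling, filterByExpr with a minimum count of 10 and a minimum total of 15, robust quasi-likelihood test) on the 12 libraries of each comparison, with sex as a covariate, and p-values were adjusted by Benjamini-Hochberg over all genes tested. The threshold was 0.05. All 10 members passed the filter in each comparison. Single values were tested by two-sided exact permutation tests of log2 CPM (prior count 2), which cannot go below 0.00216 for 6 against 6 mice, with 30 tests made. Correlations used 100000 permutations. Alternatives used DESeq2 1.42.0, limma 3.58.1 on log2(FPKM + 0.1) and log2(FPKM + 1), other scaling, filters and covariates, all 18 libraries in 1 fit, and leaving out each mouse. The fits were tested on simulated data. Named genes were the 10 members, the genes of each related list with an adjusted p under 0.05, and the 10 genes most like the members, of which 4 are given. Single genes named beside a list without a call, such as *Jun*, were chosen after their values were seen. Members, lists and markers were chosen with earlier results of these data known. Mice are separate animals, and the labels name no batch. Labels number mice within each group and sex, but same-numbered mice correlated by -0.15 to 0.26 in their deviations, not over 0.1 in every pair of any comparison, so that the numbers were not taken as pairs. The depth was 63235040 to 82824942 counts per library, and count precision covers counting error only. Promoter windows came from RefSeq (GRCm38.p6), and exons from GENCODE. Symbols replaced by newer ones (*Ccn1*, *Ccn2*, *Mrtfa*, *Mrtfb*) were matched through a list of older names.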

Additional observations from a re-analysis of the deposited data

How the results depend on the processing

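For fracture against sham, the count of immediate early genes with an unadjusted p under 0.05 was 6 under each of 9 other settings, and 6 to 7 with 1 mouse left out. The count called at an adjusted p under 0.05 was 0 in edgeR, but 4 with DESeq2, 2 when genes needed 10 counts in every library and 1 with all 18 libraries in 1 fit, and 0 to 1 with 1 mouse left out. For fracture plus PDX against sham it was 2 with DESeq2 and 0 to 1 with 1 mouse left out, and the count at an unadjusted p under 0.05 was 2 (without fracture plus PDX female 1) to 5. For PDX against vehicle no setting called any of the 10, and the count at an unadjusted p under 0.05 was 0 without the sex covariate, 2 with limma at either pseudocount, and 0 to 1 with 1 mouse left out. Over all genes, DESeq2 called 1506 for fracture against sham, 10 for PDX against vehicle and 1627 for fracture plus PDX against sham. Leaving out 1 mouse gave 213 (without fracture female 2) to 710, 0 to 1, and 498 (without fracture plus PDX female 1) to 1008. The cause of these shifts was not tested.

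With the number of the mouse as a replicate block, 118 genes were called for fracture against sham and 486 for fracture plus PDX against sham, none of them an immediate early gene, and 0 of the 10 had an unadjusted p under 0.05 for PDX against vehicle. Same-numbered mice deviated together with correlations of -0.06 to 0.12, -0.15 to 0.26 and -0.13 to 0.18 in the 3 comparisons. For PDX against vehicle all 3 male pairs lay at 0.15 to 0.26 and the female pairs at -0.15 to 0.079, so that not every pair was over 0.1 and the numbers were not used to pair mice.

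With 1 mouse left out, estimates of small size changed sign: *Fosb* for fracture against sham (-0.27 to 0.0085, above 0 without fracture female 2), and for PDX against vehicle *Fos* (-0.17 to 0.076), *Fosb* (-0.30 to 0.011), *Egr3* (-0.16 to 0.055), *Arc* (-0.16 to 0.0091) and *Nr4a1* (-0.068 to 0.035). Under the 9 settings that kept all mice, no estimate of the 10 genes changed sign in any comparison. The sex interaction had 0 calls in edgeR and DESeq2. Lists of related genes moved with the method too: for fracture against sham DESeq2 called 7 feedback regulators lower and 1 higher, 4 neuronal effectors higher, and 4 heat shock genes lower and 1 higher, while the replicate block called 0 neuronal effectors and 0 heat shock genes. Of 45 pairs of genes, r was above 0 in 27, in 30 without the 2 most extreme mice and in 28 on log2(FPKM + 0.1). Depth limited only *Npas4*, at 10 to 43 counts, and *Fosb*.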

Other observations

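Of the genes related to the immediate early genes, the calls for fracture plus PDX against sham, on the same sham mice as before, were as follows. Among the early transcription factors *Atf3* (log2 fold change 2.21, SE 0.26; passed under 21 of 21 further settings) was called higher by edgeR, and *Nr4a3* (-1.57, SE 0.29; 20 of 21), *Mafk* (-0.19, SE 0.05; 9 of 21) and *Bhlhe40* (-0.29, SE 0.07; 10 of 21), a clock and stress repressor, were called lower. Among the feedback regulators *Gadd45a* was higher (1.01, SE 0.17; 20 of 21), and *Zfp36* (-0.46, SE 0.10; 17 of 21) and the matricellular genes *Ccn1* (-0.32, SE 0.08; 8 of 21) and *Ccn2* (-0.36, SE 0.09; 10 of 21) were lower. *Btg2* had 8.73–12.8 CPM in these mice (median 10.8) and was not called. Among the neuronal effectors *Vgf* (0.68, SE 0.12; 21 of 21), *Nptx2* (0.32, SE 0.04; 21 of 21) and *Nptxr* (0.18, SE 0.04; 11 of 21) were higher and none was lower. *Atf3* reached 25.7–108 CPM in fracture plus PDX mice (median 60.8), beside 20.2–72.5 CPM in fracture mice, and this difference between PDX and vehicle was not called. The inducible chaperones *Hspa1a* (-1.08, SE 0.23; 11 of 21), *Hspa1b* (-1.17, SE 0.23; 17 of 21), *Dnajb1* (-0.38, SE 0.09; 14 of 21) and *Hsph1* (-0.30, SE 0.05; 21 of 21) were called lower, and *Hspb1* (0.22, SE 0.05; 12 of 21), which sensory neurons express, and *Bag3* (0.11, SE 0.03; 7 of 21) were called higher. With the number of the mouse as a replicate block, the calls of all 4 feedback regulators were lost (edgeR adjusted p = 0.0528 for *Gadd45a*, 0.0501 for *Zfp36*, 0.124 for *Ccn1* and 0.0737 for *Ccn2*), as were those of *Mafk*, *Bhlhe40*, *Nptxr*, *Hspa1a*, *Hspa1b* and *Bag3* (0.0561 to 0.112). The other calls held.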
